A study of Mus musculus with 3 samples.

Results

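Gene-end peaks present in both libraries are stretches of DNA, enriched with an antibody against 5-methylcytosine (5mC), that were found next to the start or end of the same protein-coding gene in TAC and in Sham cardiomyocytes. Members were chosen by position: a Sham peak on chromosomes 1 to 19 counted when it overlapped a TAC peak by at least 1 bp and both peaks reached into the 1000 bp on either side of the start or end of the same protein-coding gene in the RefSeq annotation. The rule found 3275 TAC peaks paired with 3268 Sham peaks, which are the members, at the ends of 3196 of 20665 autosomal protein-coding genes. The members made up 2.06% of the 159304 autosomal TAC peaks and 2.43% of the 134294 autosomal Sham peaks.

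The data come from MeDIP-seq, the sequencing of DNA fragments pulled down with this antibody, in isolated cardiomyocytes of male C57Bl6/J mice, 8 weeks old. The TAC library came from hearts under pressure overload for 1 week, per the series title; TAC stands for transverse aortic constriction, an operation that narrows the aorta. The Sham library came from sham-operated animals, and an Input library without antibody served the authors' peak calling and was otherwise not analysed here. Each group has 1 library, with 14658177 tags in TAC and 12585289 in Sham per the file headers, so differences between TAC and Sham have no replicate check, and the labels do not say whether animals were pooled.

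In mammals most CpG dinucleotides in gene bodies and between genes carry 5mC, while CpG-rich promoters are usually free of it. The best known exceptions among CpG-rich promoters are those of germline genes, which are methylated and silent in somatic cells, and the control regions of imprinted genes, which are methylated on the copy from a single parent. Transcription factors that read such sequences include ZFP57, which binds a methylated hexamer at imprinting control regions, and the MGA and MAX proteins, which bind the E-box in promoters of germline genes. MeDIP recovers fragments the better the more methylated CpGs they hold, so a peak marks enrichment over input and is not a methylation level, and methylated DNA with few CpGs is recovered poorly.

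Promoter sequences of 6 genes are shown because the results turn on them. They are the RefSeq promoters of build GRCm38.p6, 250 bases before to 50 bases after the annotated gene start, written 5′ to 3′ on the strand of the gene, with each CG in capitals. Dazl (chr17:50293571-50293870, minus strand) codes for an RNA-binding protein of germ cells, Tex12 (chr9:50561219-50561518, minus strand) and Sycp1 (chr3:102936051-102936350, minus strand) for proteins of the synaptonemal complex of meiosis, and Gnas (chr2:174284070-174284369, plus strand) is an imprinted gene for a G protein subunit. Gm46731 (chr2:11745149-11745448, minus strand) is a predicted gene with a pair near the top of both lists, and its promoter holds 0 CpG. Its TAC peak ran from 11744171 to 11745326 and its Sham peak from 11744166 to 11745244, so most of both lay outside the printed bases. The sequences of the peaks themselves were not read, so their CpG number is not known. Actg1 (chr11:120348446-120348745, minus strand), the gene for cytoplasmic gamma-actin, has no peak at its promoter in either library; it was chosen for contrast after its values were seen.
Dazl: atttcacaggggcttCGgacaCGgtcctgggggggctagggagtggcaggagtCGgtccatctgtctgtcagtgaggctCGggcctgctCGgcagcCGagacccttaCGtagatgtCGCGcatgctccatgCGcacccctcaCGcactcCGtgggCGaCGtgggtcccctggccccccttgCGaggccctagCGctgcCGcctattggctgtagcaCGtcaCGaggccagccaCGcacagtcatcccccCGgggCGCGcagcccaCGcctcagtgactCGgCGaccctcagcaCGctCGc
Tex12: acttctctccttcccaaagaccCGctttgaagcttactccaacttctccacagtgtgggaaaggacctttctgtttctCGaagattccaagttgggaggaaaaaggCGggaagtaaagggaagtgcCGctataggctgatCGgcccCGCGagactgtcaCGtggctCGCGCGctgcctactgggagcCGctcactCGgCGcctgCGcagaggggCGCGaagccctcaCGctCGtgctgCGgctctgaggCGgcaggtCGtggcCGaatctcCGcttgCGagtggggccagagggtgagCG
Sycp1: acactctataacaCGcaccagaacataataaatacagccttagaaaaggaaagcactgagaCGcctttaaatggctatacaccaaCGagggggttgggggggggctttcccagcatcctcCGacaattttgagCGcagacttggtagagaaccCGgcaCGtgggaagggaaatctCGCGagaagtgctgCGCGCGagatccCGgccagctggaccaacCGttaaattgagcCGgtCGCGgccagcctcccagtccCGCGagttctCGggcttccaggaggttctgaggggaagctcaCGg
Gnas: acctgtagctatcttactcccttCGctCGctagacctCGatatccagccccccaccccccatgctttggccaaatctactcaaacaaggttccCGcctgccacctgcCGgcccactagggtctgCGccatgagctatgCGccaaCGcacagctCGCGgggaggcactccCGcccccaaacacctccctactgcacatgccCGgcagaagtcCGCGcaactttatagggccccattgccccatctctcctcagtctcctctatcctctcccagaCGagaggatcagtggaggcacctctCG
Gm46731: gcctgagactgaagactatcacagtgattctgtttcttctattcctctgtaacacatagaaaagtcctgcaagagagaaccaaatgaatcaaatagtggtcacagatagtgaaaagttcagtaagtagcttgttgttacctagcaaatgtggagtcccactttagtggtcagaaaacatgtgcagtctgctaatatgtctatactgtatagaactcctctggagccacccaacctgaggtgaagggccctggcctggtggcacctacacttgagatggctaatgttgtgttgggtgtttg
Actg1: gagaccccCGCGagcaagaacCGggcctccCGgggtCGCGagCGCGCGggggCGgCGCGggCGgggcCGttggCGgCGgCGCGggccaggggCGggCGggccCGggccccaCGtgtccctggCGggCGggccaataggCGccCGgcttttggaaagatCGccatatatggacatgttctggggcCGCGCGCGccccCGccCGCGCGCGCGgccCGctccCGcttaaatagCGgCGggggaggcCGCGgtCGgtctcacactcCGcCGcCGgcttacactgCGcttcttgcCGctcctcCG
The promoter windows of Dazl, Tex12, Sycp1 and Gnas hold 28, 26, 21 and 16 CpG, and each was overlapped by a member pair. The Actg1 window is richer still, with 50 CpG and 77.3% G and C, and was overlapped by none.

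Protein-coding genes fell into 4 main classes by the peaks at their ends. A shared pair lay at an end of 15.5% of genes (95% interval 15 to 16; exact Clopper-Pearson, counting error only, as for all shares here). Another 1830 genes, or 8.86%, had a peak at an end in TAC alone, and 1650, or 7.98%, in Sham alone. Only 210 genes, or 1.02%, had peaks of both libraries at their ends that did not form such a pair, and 13779, or 66.7%, had no peak at an end. Of the peaks that touched a gene end in TAC, 58.0% were members, and of those in Sham, 59.9%.

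Being at a gene end did not set sharing apart in the same way in both libraries. In TAC, 61.6% (60.3 to 62.9) of gene-end peaks overlapped a Sham peak, against 55.7% (55.5 to 56.0) of the other TAC peaks. In Sham, 63.8% (62.5 to 65.1) of gene-end peaks overlapped a TAC peak, against 66.3% (66.0 to 66.5) of the other Sham peaks. The gene-end share was the higher in TAC and the lower in Sham, and the intervals did not overlap in either library. Neighbouring peaks are not independent, so these intervals are too narrow.

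Most members served a single gene. Of the member peaks, 3046 lay at an end of 1 gene, 219 at ends of 2 genes and 3 at ends of more. The most genes per peak was 14, in the protocadherin cluster, where the annotation gives many cell-adhesion genes a common end. Conversely, 2901 genes had 1 member peak, 282 had 2 and 13 had 3. Cdh24, a cadherin cell-adhesion gene, and Clstn1, which codes for the synaptic membrane protein calsyntenin 1, were among those with 3, as were Creb3l1, a transcription factor of the endoplasmic reticulum membrane, Fam167a and Fam240a. In Cdh24 the pair highest in the lists lay at the 5′ end and spanned 1800 bp in TAC and 1651 bp in Sham.

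More pairs lay near a gene end than on it, which a window wider than most peaks favours in any case. The shares for randomly placed peaks were not computed. Both peaks came within 500 bp of a gene end for 57.8% of members, and both covered the end base for 17.5%. The limit of 1000 bp was met closely by a few. Just inside it, the TAC and Sham peaks lay 987 and 1000 bp from the end of Fam167a, 986 and 1000 bp from Slc35a3, and 50 and 1000 bp from Vmn1r33. Just outside it, they lay 1001 and 916 bp from Sel1l, 0 and 1001 bp from Twist2, and 1001 and 817 bp from Zscan25.

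Strand, which the rule did not use, was known for 2451 member genes. A pair lay at the 5′ end alone in 41.2% (39.3 to 43.2) of them, at the 3′ end alone in 49.6% (47.6 to 51.6) and at both ends in 9.14% (8.03 to 10.3). In 1 gene the TAC and Sham peaks of the pair lay at opposite ends. Of all genes with a known strand, 7.50% (7.11 to 7.92) had a member at the 5′ end and 8.74% (8.32 to 9.19) at the 3′ end. The excess at the 3′ end was wider in Sham than in TAC: peaks of the TAC library touched the 3′ end of 14.5% and the 5′ end of 13.3% of genes, and peaks of the Sham library touched 15.1% and 11.9%. This contrast of the libraries has no replicate check.

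**Figure D1:**
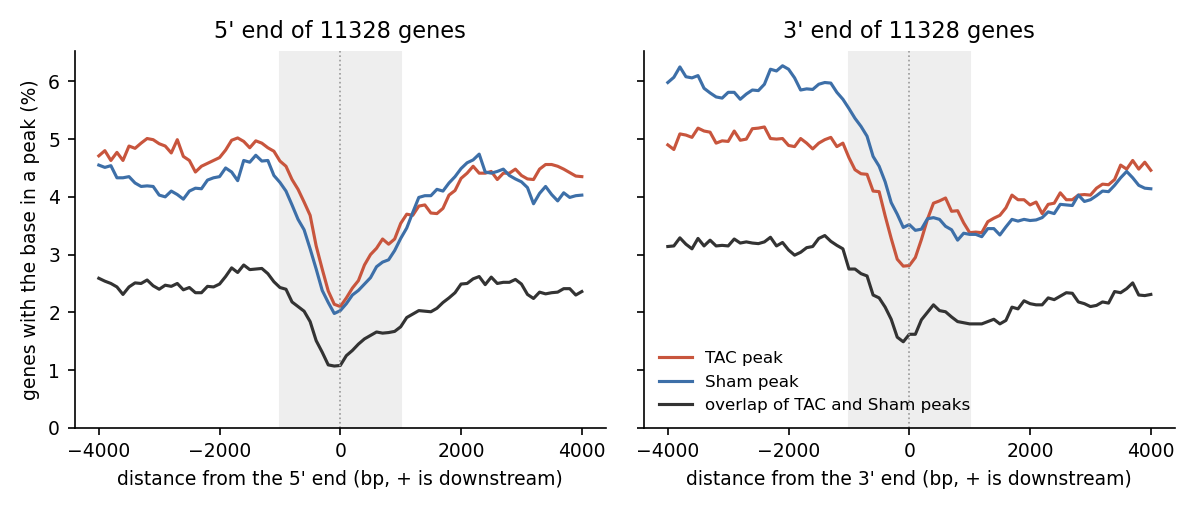
Share of genes (vertical axis, percent) whose base at a given distance from the 5′ end (left panel) or the 3′ end (right panel) lay in a TAC peak (red), a Sham peak (blue) or the overlap of both (black), over 11328 genes of at least 8000 bp; horizontal axes are in bp, positive values lie downstream, and the grey band is the window of the rule. The black line falls to 1.07% just upstream of the 5′ end and to 1.49% just upstream of the 3′ end.

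Shared enrichment was thinnest at the ends themselves. Among 11328 genes of at least 8000 bp, the overlap of TAC and Sham peaks covered 2.82% of genes at 1600 bp upstream of the 5′ end, its highest point there, and 1.07% at 100 bp upstream, its lowest. At 2000 bp downstream of the 5′ end the share was 2.49%. At the 3′ end the highest share, 3.33%, lay 1400 bp upstream and thus in the gene, and the lowest, 1.49%, lay 100 bp upstream. Beyond the 3′ end the share was 1.80% at 1000 bp and 2.31% at 4000 bp downstream, below the 3.14% at 4000 bp upstream. Both libraries dipped at the 5′ end, and TAC also dipped at the 3′ end, as the plot of peak coverage around gene ends shows. The Sham share stepped down across the 3′ end instead. It was 5.98% at 1400 bp upstream, 3.52% at the end, 3.25% at 800 bp downstream and 4.14% at 4000 bp downstream.

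Promoters that carried a member were few, and the share overlapped was highest at intermediate CpG content. A shared pair overlapped 248 of 14811 promoter windows of 300 bases, or 1.67%, while 216 were overlapped in TAC alone and 183 in Sham alone. The median promoter under a shared pair held 9 CpG, against 15 in promoters without a peak. The share overlapped by a pair was 0.781% (0.287 to 1.69) among promoters with 0 CpG, reached 3.70% (2.51 to 5.24) among those with 10 to 12, and was 0.476% (0.229 to 0.874) among those with 31 or more. Promoters overlapped in TAC alone or in Sham alone followed a like course, with a median of 8 CpG each.

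**Figure D2:**
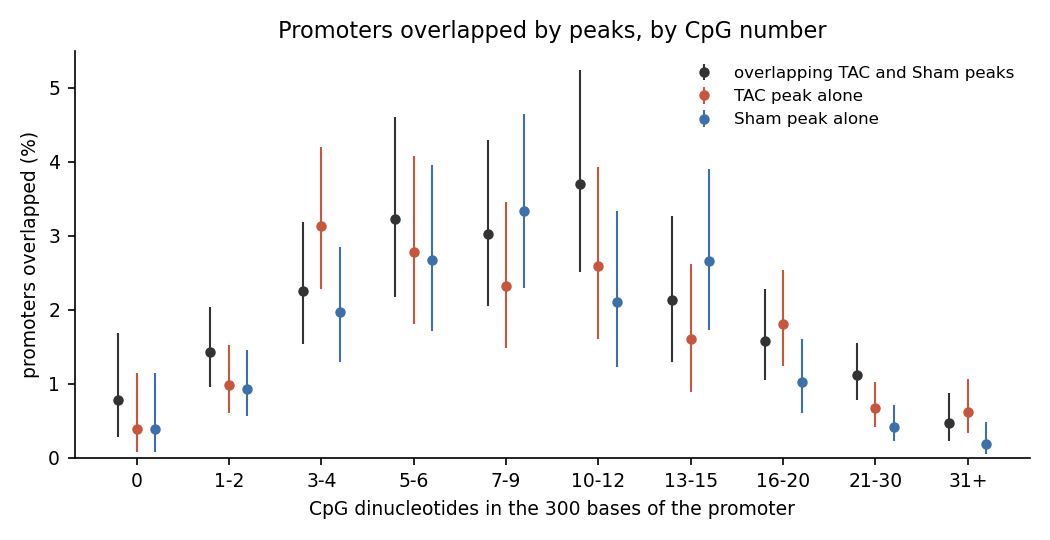
Share of promoter windows overlapped by overlapping TAC and Sham peaks (black), a TAC peak alone (red) or a Sham peak alone (blue), by the number of CpG dinucleotides in the 300 bases; bars are exact 95% intervals for counting error. Shared pairs are at 3.70% for 10 to 12 CpG and at 0.476% for 31 or more.

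Germline genes had the highest share with a member among the 18 gene lists, and nearly all at the 5′ end. A shared pair lay at an end of 30 of 59 germline genes, or 50.8% (37.5 to 64.1), against 15.5% of all genes. Of the 28 with a known strand, 27 had it at the 5′ end and 2 at the 3′ end. Dazl had TAC and Sham peaks of 885 and 885 bp, at list positions of 0.545% and 0.398%; the list position is the place of a peak in the authors' list, from 0% for the first to 100% for the last. Tex12 had peaks of 905 and 959 bp at positions 1.46% and 0.917%. Sycp1 had peaks of 948 and 1992 bp at 3.05% and 0.896%, and Sycp3, another synaptonemal complex gene, had 2280 and 2439 bp at 1.08% and 0.816%. In all 4 genes both peaks stood in the first 5% of their lists. These 4 were named because their pairs stood earliest among the germline members, so their early places follow from the choice. Over the 30 germline members the median list position was 18.5% in TAC and 13.1% in Sham. The other germline members include Ddx4, an RNA helicase, Mael, Tdrd1, Tdrd9, Piwil1 and Mov10l1, which act in the piRNA pathway that silences transposons, Stra8, which drives entry into meiosis, Spo11, which makes its DNA breaks, Brdt, a testis bromodomain protein, and Figla, an oocyte transcription factor.

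At the promoter itself the germline list also had the highest share. Of 48 germline promoters, 23 were overlapped by a shared pair, or 47.9% (33.3 to 62.8), 0 by a TAC peak alone, 5 by a Sham peak alone and 20 by none. Of the imprinted promoters it was 11 of 33, or 33.3% (18 to 51.8), with 0 overlapped in 1 library alone. Of the promoters on neither list it was 214 of 14730, or 1.45%. Among promoters with at least 20 CpG, 51 were overlapped by a shared pair: 14 of 19 germline promoters, 3 of 11 imprinted promoters and 34 of 5560 others, or 0.612%. The 23 germline promoters lay under pairs with a median list position of 17.5% in TAC and 9.82% in Sham, against 31.4% and 27.4% for all 248. The germline and imprinted lists were drawn up with earlier results of these data known.

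Several CpG-rich promoters outside both lists were also overlapped by pairs high in both lists; these were picked after their values were seen. The promoter of 4933428G20Rik, with 42 CpG, lay under a pair at positions 0.633% in TAC and 0.406% in Sham. That of Hsf5, a heat shock factor family gene expressed in testis, has 34 CpG and lay under a pair at 2.03% and 1.21%. Taf7l2 and Tmem267, with 22 CpG each, lay under pairs at 1.80% and 0.723%, and at 0.267% and 0.103%. Others did not: Zic1, a developmental zinc finger gene with 31 CpG, was at 35.5% in TAC and 83.7% in Sham.

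Short motifs were not equally frequent among promoters of the same list. The E-box CACGTG was found, on either strand, in 14 of 23 germline promoters under a shared pair, or 60.9%, and in 4 of the 25 other germline promoters, or 16%; over all 14811 promoters it was in 8.09%. It stands as caCGtg in the printed Tex12 and Sycp1 promoters and also in that of Actg1, which has no peak, and it is not in that of Dazl. The hexamer TGCCGC, read by ZFP57, was in 5 of 11 imprinted promoters under a pair, or 45.5%, in 2 of the 22 others, or 9.09%, and in 14.1% of all. The imprinted promoters also held the E-box in 3 of 11 under a pair and in 0 of the 22 others, and the cyclic AMP response element TGACGTCA in 2 of 11 and in 0 of 22. These 2 are Peg3 and Usp29, which lay under the same pair, so a single locus is counted more than once here and among the 11. The hexamer TCCCGC, bound by E2F6, was in 47.8% of covered and 44.0% of other germline promoters, and in 26.7% of all. Over all 248 promoters under a pair, the E-box was in 12.9%, TGCCGC in 10.9%, TCCCGC in 21.8%, the TATA box TATAAA in 10.9% and TGACGTCA in 1.21%. The 32 promoters behind the 12.9% include the 14 germline and 3 imprinted promoters above. Over all promoters TATAAA was in 13.9% and TGACGTCA in 2.46%. Among promoters with 5 to 15 CpG, the shares under a pair and over all such promoters were close: 8.26% and 7.39% for the E-box, 8.26% and 8.40% for TGCCGC, and 18.3% and 17.9% for TCCCGC. Germline promoters under a pair held a median of 20 CpG, above this band. A motif match is a string of letters and not a bound site. The split within the lists was made after the sequences had been read.

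Imprinted genes were next among the lists. A pair lay at an end of 21 of 45, or 46.7% (31.7 to 62.1), with 3 genes covered in TAC alone and 0 in Sham alone. Of the 17 with a known strand, 13 had a pair at the 5′ end and 6 at the 3′ end. Peg10, a gene derived from a retrotransposon, had 2 member peaks, the higher pair with 2561 bp in TAC and 1545 bp in Sham at 0.403% and 1.71%. Gnas had 1399 and 3350 bp at 7.80% and 1.81%, and Mest, a hydrolase-like gene, had 1496 and 1711 bp at 8.22% and 6.51%. Igf2, the fetal growth factor insulin-like growth factor 2, had its pair at the 3′ end, with 627 and 937 bp at 5.95% and 7.35%, whereas Igf2r, its clearance receptor, had it at the 5′ end with 501 and 647 bp at 52.5% and 21.4%. Peg3 and Usp29, transcribed in opposite directions from a common control region, lay under 1 pair at 6.79% and 7.13%. Nnat, Nap1l5, Plagl1, Mcts2 and Zdbf2 also had a promoter under a shared pair.

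**Figure D3:**
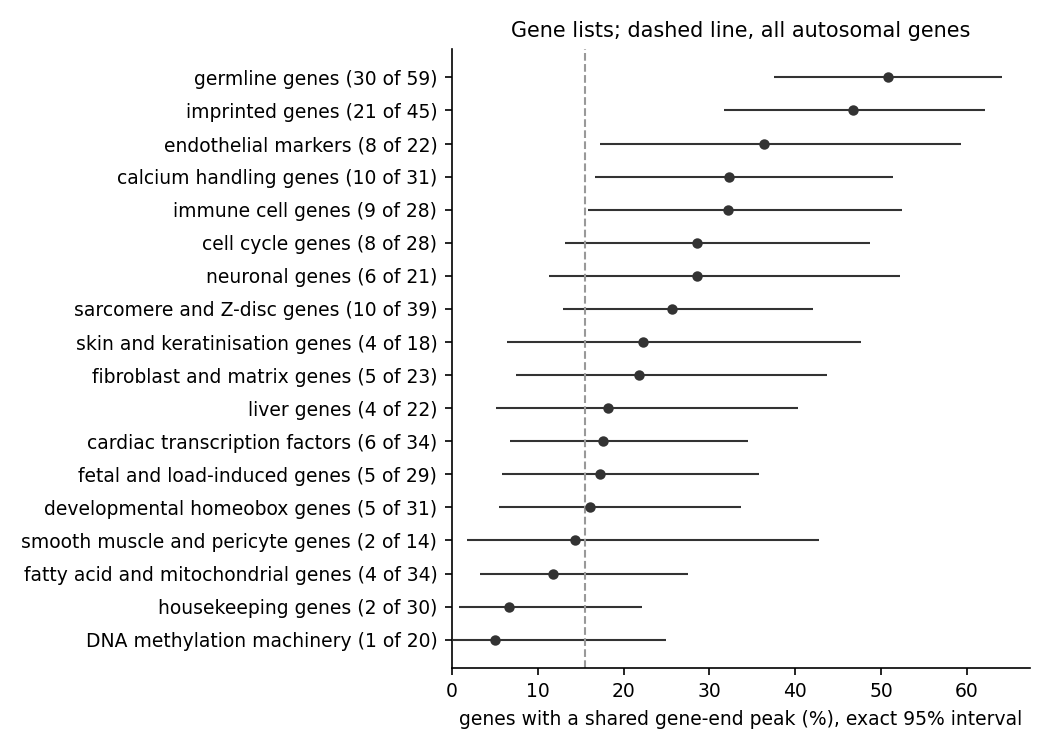
Share of the genes of each of 18 lists (horizontal axis, percent; number of genes in brackets) with a shared gene-end peak; bars are exact 95% intervals for counting error and the dashed line is the share of all autosomal protein-coding genes, 15.5%. The germline list at 50.8% and the imprinted list at 46.7% lie to the right of the other lists.

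The lists of sarcomere, calcium handling and cardiac transcription factor genes had shares nearer to the 15.5% of all genes, with no promoter under a shared pair. Of 39 sarcomere and Z-disc genes 10 had a pair, or 25.6% (13 to 42.1), of 31 calcium handling genes 10, or 32.3% (16.7 to 51.4), and of 34 cardiac transcription factors 6, or 17.6% (6.76 to 34.5). No promoter of 27 sarcomere, 19 calcium handling and 16 transcription factor genes was overlapped by a shared pair; the exact intervals reach up to 12.8%, 17.6% and 20.6%. Outside these lists, the promoters of Nrap, a myofibril anchoring gene, and Gja5, a connexin gene, were under pairs at 73.1% in TAC and 98.2% in Sham and at 63.8% and 83.7%; these 2 were picked after their values were seen. Myh6, the adult myosin heavy chain of the mouse ventricle, had its pair beyond the 3′ end, with 907 and 626 bp at 2.77% in TAC and 14.1% in Sham. Actn2, the Z-disc alpha-actinin, had it upstream of the 5′ end, with 922 and 654 bp at 11.8% and 12.6%, and its promoter window was touched by the TAC peak alone. Tnnt2 and Tnni3, the cardiac troponins T and I, had their pairs at the 3′ end, at 59.6% in TAC and 63.7% in Sham for Tnnt2 and at 41.6% and 75.4% for Tnni3. Tcap, a titin cap protein, had peaks of 627 and 1943 bp at 24.4% and 7.56%.

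Calcium handling members include Casq1, a calcium store protein, at 9.54% and 7.35%, and Hrc, a calcium-binding protein of the sarcoplasmic reticulum, at 6.98% and 15.9%. Stim1, the store sensor, had 2 member peaks, the higher pair at 9.82% and 11.7%, and Calm3, a calmodulin gene, lay at 6.98% and 5.62%. Jph2, which anchors the reticulum to the cell membrane, lay at 79.2% and 75.4%. Hand1, a transcription factor of the developing heart, had wide peaks of 2621 and 3046 bp at 5.66% and 0.959%, and Tbx3, a factor of the conduction system, had 1944 and 2047 bp at 8.00% and 4.08%. The pairs given for these 2 genes were high in both lists, though Hand1 had 2 member peaks and only its higher pair is given. The pairs of Nfatc4 and Irx5 had 501 bp in TAC and lay past 50% of the TAC list.

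Load-induced, metabolic and housekeeping genes were near or under the share of all genes. Of 29 fetal and load-induced genes 5 had a pair, or 17.2% (5.85 to 35.8): Fos, an immediate early gene, the metallothioneins Mt1 and Mt2, Uchl1 and the cytokine Il6, whose promoter was the only one under a pair among 20 of this list. For these 5 the median list position was 63.8% in TAC and 34.1% in Sham. Of 34 fatty acid and mitochondrial genes 4 had a pair, or 11.8% (3.3 to 27.5), among them Pdk4, a kinase that holds back glucose oxidation, and Acadm, an enzyme of fatty acid oxidation, both at the 3′ end. Of 30 housekeeping genes 2 had a pair, or 6.67% (0.818 to 22.1); Polr2a, the largest subunit of RNA polymerase II, had it at the 3′ end with 1994 and 1305 bp at 0.633% and 1.49%. Of the 20 genes of the DNA methylation machinery, Tet2, a 5mC oxidase, was the only one, with peaks of 626 and 631 bp upstream of its 5′ end at 24.4% and 20.5%.

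Lists for other cell types and processes gave 8 of 22 endothelial genes (36.4%), 9 of 28 immune genes (32.1%), 6 of 21 neuronal genes (28.6%), 8 of 28 cell cycle genes (28.6%), 4 of 18 skin genes (22.2%), 5 of 23 fibroblast genes (21.7%), 4 of 22 liver genes (18.2%), 5 of 31 developmental homeobox genes (16.1%) and 2 of 14 smooth muscle genes (14.3%). The intervals of the endothelial, immune and calcium handling lists lay just above 15.5%, and those of the other lists named here, from neuronal to smooth muscle, held it. Erg, an endothelial transcription factor, had 1991 and 1866 bp at 1.40% and 2.19%, and Kdr, the main receptor for VEGF, had 815 and 627 bp at 7.17% and 6.14%, both at the 3′ end. Among the fixed cell type markers, 5 of 10 for cardiomyocytes had a pair (Myh6, Actn2, Tnnt2, Tnni3 and Myl3), 2 of 7 for endothelium, 1 of 7 for fibroblasts, 1 of 6 for smooth muscle and 4 of 7 for immune cells. A 5mC peak does not give expression, so these counts do not check the labelled cell type.

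Gene families ranged widely around 15.5%. Of the 19 Wnt genes, which code for secreted signals of development, 10 had a pair, or 52.6% (28.9 to 75.6), and all 7 with a known strand had it at the 3′ end, 1 of them also at the 5′ end. Wnt9b had a pair at each end, the higher with 1153 and 1256 bp at 30.6% in TAC and 6.71% in Sham. Wnt10a had 1972 and 782 bp at 4.41% and 5.62%. None of the 12 Wnt promoters that could be read, with a median of 42.5 CpG, was overlapped by a pair.

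Of the 27 kallikreins, secreted serine proteases encoded side by side, 13 had a pair, or 48.1% (28.7 to 68.1), from 13 peaks. The neighbours Klk6, Klk5, Klk4 and Klk15 formed a run of 4, and Klk10 had 756 and 1109 bp at 10.1% and 13.5%. Collagens had 13 of 42 (31%, 17.6 to 47.1), interleukins and their receptors 24 of 78 (30.8%, 20.8 to 42.2), keratins 16 of 53 (30.2%, 18.3 to 44.3) and the tripartite motif family 18 of 68 (26.5%, 16.5 to 38.6). Phospholipases A2 had 6 of 19, of which 5 were at the 5′ end, but the interval of 12.6 to 56.6 held 15.5%. Clustered protocadherins had 17 of 57 (29.8%), yet only 4 peaks stood behind them. Col6a2, a chain of collagen VI, had pairs at both ends, the higher with 1094 and 1123 bp at 6.43% and 3.05%, and Il4ra, the interleukin 4 receptor chain, had 627 and 626 bp at 4.09% and 6.51%. Genes of a family are often neighbours and alike in sequence, so their intervals are too narrow.

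**Figure D4:**
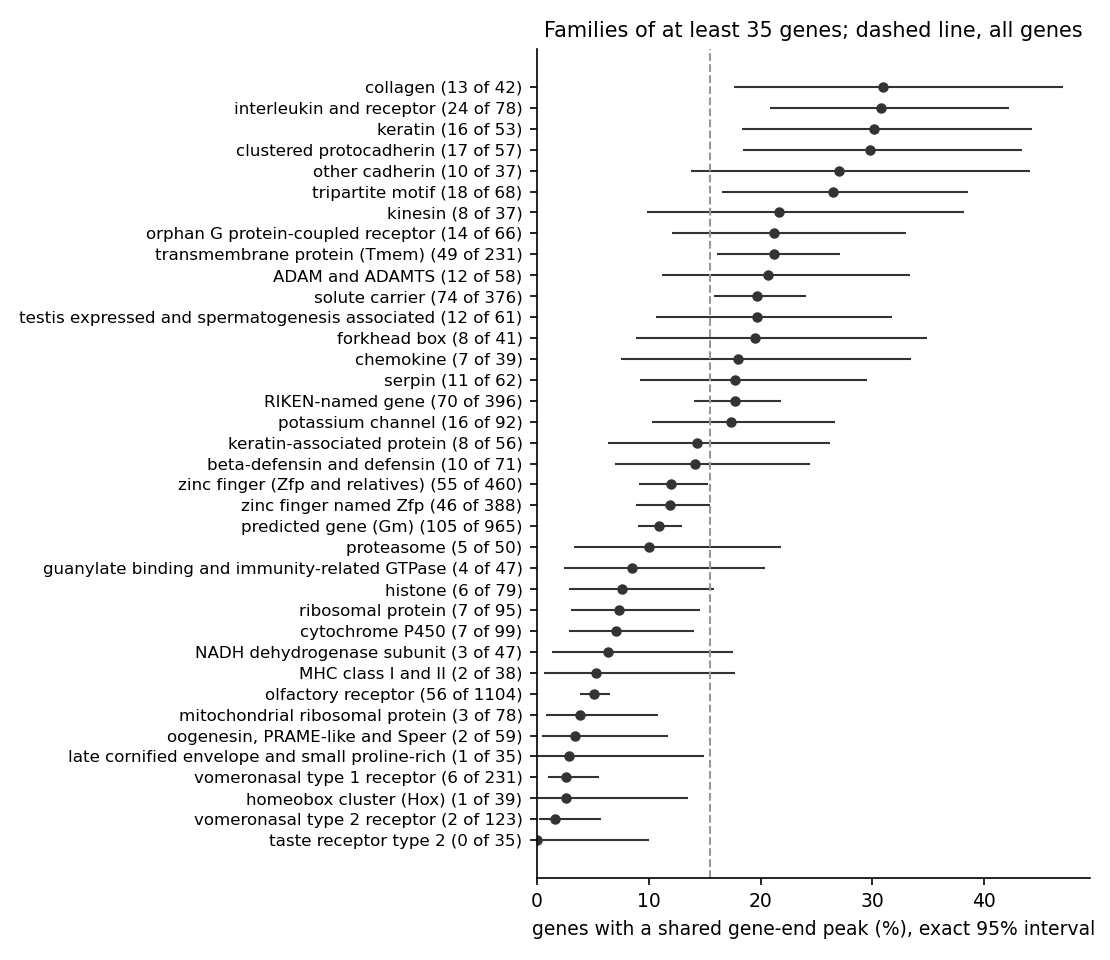
Share of the genes of each family of at least 35 genes (horizontal axis, percent; number of genes in brackets) with a shared gene-end peak; bars are exact 95% intervals for counting error and the dashed line is 15.5%. Collagens, interleukins and keratins lie near 31%, and olfactory and vomeronasal receptors lie between 1.63% and 5.07%.

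Families with low shares were of several kinds. Olfactory receptors, the odour receptors of the nose, had a pair at 56 of 1104 genes, or 5.07% (3.85 to 6.54). Vomeronasal receptors had 6 of 231 in type 1 and 2 of 123 in type 2, and taste receptors of type 2 had 0 of 35, with an exact interval up to 10%. The median olfactory promoter held 1 CpG in its 300 bases. Ribosomal proteins had 7 of 95 (7.37%, 3.01 to 14.6), mitochondrial ribosomal proteins 3 of 78 (3.85%, 0.800 to 10.8) and cytochrome P450 enzymes 7 of 99 (7.07%, 2.89 to 14.0). Hox cluster genes, which pattern the body axis, had 1 of 39 (2.56%, 0.0649 to 13.5), and its pair stood at the end of the lists, at 99.6% in TAC and 98.2% in Sham. Zinc finger genes named Zfp had 46 of 388 (11.9%, 8.81 to 15.5), more often at the 3′ end (26 genes) than at the 5′ end (15) among the 37 with a known strand.

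Member genes were about as long as other genes. Their median length was 18 kb (17.1 to 19; interval from order statistics), against 17.5 kb (17.1 to 17.9) for all genes. Without the short sensory receptor genes it was 18.5 kb (17.5 to 19.5), against 19.7 kb for all genes without them, so the sign of the small difference rests on those receptors. By length decile, the share with a pair was 6.96% (5.90 to 8.15) in the shortest decile, from 0.144 to 1.70 kb, and between 13.9% and 18% in the others, with no steady trend. Without sensory receptors the shortest decile was at 10.6%. Dab1, an adaptor in neuronal migration and at 1125 kb the longest member gene, had 501 and 501 bp at its 3′ end, at 39.4% and 50.2%. The shortest was Rps27rt, at 0.374 kb.

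Members were spread over all 19 autosomes, from 10.9% (8.82 to 13.2) of genes on chromosome 13 to 20.7% (17.9 to 23.8) on chromosome 15. The longest runs of neighbouring member genes held 8 genes. The run on chromosome 18, from Pcdha7 to Pcdhac2 in the protocadherin cluster, rested on 1 peak. On chromosome 6, from 124841089 to 125003096, 6 peaks served P3h3, Gpr162, Cd4, Lag3, Ptms, Mlf2, Cops7a and Pianp, among them the genes of the T cell proteins CD4 and LAG3. On chromosome 11 a run of 6 genes with 7 peaks held Csf2 and Il3, neighbouring cytokine genes. On chromosome 8 the run of Adam18, Adam3, Adam5 and Adam32, metalloprotease-like genes of testis, had 5 peaks.

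Members and other shared pairs stood at like places in the TAC list but not in the Sham list. The lists are ordered in 414 runs in TAC and 352 in Sham, and within a run peaks are sorted by position; neither labels nor headers state what the order ranks, but peaks of the first decile were wider, with a mean of 1066 bp in TAC and 1179 bp in Sham against 502 bp in the last decile of each list. The median member stood at 32.1% (30.6 to 33.8) in TAC and at 30.5% (28.9 to 32.2) in Sham. The median of the other shared pairs was 30.6% in TAC and 36.2% in Sham. In Sham it was 34.1% for those inside protein-coding genes and 41% for those outside. Of the members, 18.5% were in the first decile of the TAC list and 20.7% in that of the Sham list, while of the other shared pairs 18.1% and 14.7% were. In the first decile of the Sham list stood 16.5% of the other pairs inside genes and 13.3% of those outside.

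**Figure D5:**
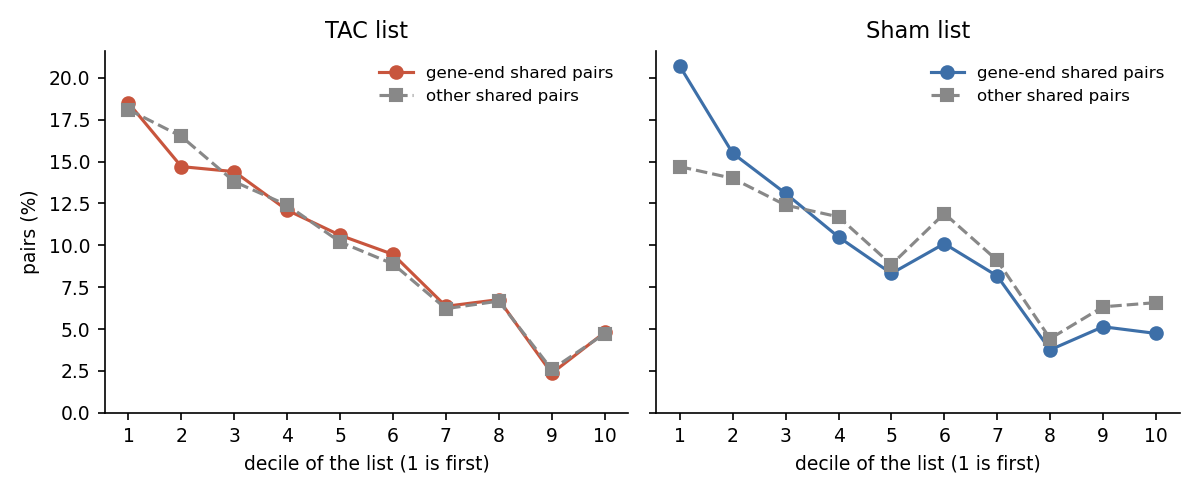
Share of pairs (vertical axis, percent) in each decile of the TAC list (left) and the Sham list (right), for gene-end shared pairs (coloured circles) and other shared pairs (grey squares); deciles hold unequal numbers of peaks because peaks of a run have the same position. The circles and squares lie close in TAC, and in the first decile of Sham members are at 20.7% and others at 14.7%.

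Within a pair, the TAC peak came earlier in its list for 48.1% (46.4 to 49.8) of members. Over all shared autosomal pairs it came earlier for 58.8%, and over the other shared pairs for 59.2%. The other pairs split by place: 54.3% of those inside protein-coding genes and 63.1% of those outside. By end, the TAC peak came earlier for 50.2% (47.3 to 53.1) of pairs at the 5′ end and for 45.7% (43.0 to 48.4) of those at the 3′ end. The lists differ in length, so an earlier place is no change in signal, and the comparison of members with other pairs within the same 2 lists is all that these shares give.

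Some pairs stood far apart in the lists. Among those with the TAC peak much earlier, Fblim1, a gene for a filamin-binding protein of cell junctions, had 2173 bp in TAC at 3.52% and 501 bp in Sham at 98.2%, and Nrgn, the neuronal calmodulin-binding protein neurogranin, had 2027 bp at 5.52% and 501 bp at 83.7%. Among those with the Sham peak much earlier, Vdr, the vitamin D receptor, had 501 bp in TAC at 98.0% and 2280 bp in Sham at 6.71%, and Kcnj9, an inward rectifier potassium channel, had 501 bp at 92.5% and 3820 bp at 4.08%. In each of these the earlier peak was the wider. This follows largely from the choice by difference of position, because peaks late in the lists are narrow, with a mean of 502 bp in the last decile of each list.

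Members were a little wider at the upper end than other shared pairs. Median widths were 628 bp in TAC and 629 bp in Sham, close to 627 and 626 bp for the other pairs. The 10% widest members began at 1239 bp in TAC and 1395 bp in Sham, against 1101 and 1085 bp for the other pairs. The peaks of a pair were centred 68.0 bp apart in the median, against 63.0 bp in other pairs. An overlap of at least 50% of the shorter peak was found in 99% of member pairs and also in 99% of other pairs.

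Of the 10 pairs highest in both lists, 6 lay at 3′ ends alone, and the gene of another, Pcdhb22, had no known strand. Among all member genes with a known strand, 49.6% had a pair at the 3′ end alone. The 10 pairs are too few to be set apart from that share. Ldc1 had peaks of 7611 bp in TAC and 7135 bp in Sham that reached from its 3′ end far downstream, at 0.00648% and 0.0136%. Shq1, which assembles small nucleolar ribonucleoproteins, followed with 1145 and 1514 bp at 0.0160% and 0.0199%. Gm46731, the gene of 1.42 kb whose promoter is printed with 0 CpG, had 1156 and 1079 bp at 0.0401% and 0.0648%; the pair covered most of the gene and reached the windows of both ends. Pdlim7, a PDZ and LIM domain protein of the cytoskeleton, had the widest member in Sham, with 3638 bp in TAC and 11888 bp in Sham inside the gene from its 3′ part on. Myl12b, a regulatory light chain of non-muscle myosin, had 3197 and 3730 bp at 0.144% and 0.0445%, and Gde1, a phosphodiesterase, 3452 and 5884 bp at 0.287% and 0.0235%. Ptgir, the prostacyclin receptor, and Tmem267 were the 2 of these 10, besides Gm46731, with a pair over a promoter that could be read. Of these, Ptgir had 2767 and 2840 bp at 0.222% and 0.154%.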

How the data were processed

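Reads were aligned to mm10 with BWA 0.7.4-r385, with Picard and HOMER 4.5 also used, per the submitters' processing notes. Per the file headers, peaks were called in each library against a shared input at 4-fold and a Poisson p of 1e-04, with a peak size of 500 bp and a minimum distance of 1000 bp; the tag threshold was 12 in TAC and 11 in Sham. The authors deposited peak positions and a score that is 1 for every peak, so no signal per peak is known. Total tags were 14658177 in TAC and 12585289 in Sham.

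Overlaps, list positions, exact binomial intervals (95%) and medians were computed with Python 3.11.15, pandas 2.3.3, numpy 2.4.6 and scipy 1.17.1, and the membership rule was tested on simulated peaks. Where a peak had several partners, the one with the longest overlap gave its values. Where a gene had several pairs, the pair with the lowest sum of TAC and Sham list positions gave the values of the gene. That choice favours early places for such genes. Values given for a promoter are those of a pair over it, which can be another pair of the gene, as for Gja5. Gene starts and ends are those of RefSeq GRCm38.p6, the assembly of mm10; the strand was taken from the RefSeq promoter table, which matched 16457 of 20665 genes, and 14811 promoters were used. The genes were those of 18 lists and 60 symbol families. Genes were named by list position, width, family, list, difference of positions, length and number of peaks; exceptions are stated. The members and lists were chosen with earlier results of these data known, and the shares of germline and imprinted genes had been seen. With 1 library per group no test was run. Intervals and limits cover counting error only. Signal, methylation levels and the Input library were not analysed here.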

Additional observations from a re-analysis of the deposited data

Results flagged for a closer look

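The rule kept to chromosomes 1 to 19. Outside it, shared pairs lay at an end of 80 of 966 protein-coding genes on chromosome X, or 8.28%, against 15.5% on the autosomes, and this signal stands in data that the comparisons above do not use. The mice were male, and peaks off the autosomes were few in general. Of 162107 TAC peaks 159304 were autosomal, and of 135886 Sham peaks 134294 were. Whether the lower share on X is particular to gene ends was not tested. Among these X-linked genes were Akap4, which codes for a protein of the sperm tail, Gata1, a blood cell transcription factor, and Syp, the synaptic vesicle protein synaptophysin. On chromosome Y it was 2 of 256 genes.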

How the results depend on the processing

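Of 80 values from 10 alternatives, 61 stayed within the interval of the reported value or, for counts, within 1.5 times of it. A window of 500 bp gave 1889 member peaks, 1929 genes and 46.3% with the 5′ end, and a window of 2000 bp gave 6079 peaks, 5506 genes, 55.5% and a median length of 19.2 kb. The first 50% of each list gave 1833 peaks, 1868 genes, median positions of 17.5% in TAC and 15.2% in Sham, 46.0% with the TAC peak earlier and a median width of 755 bp, by construction. Cutting the TAC list by order to about the Sham number gave 35.3%, 27.4% and 39.6%. Here the TAC positions are relative to the shorter list. The Sham positions remain relative to the full Sham list, over the 3034 member peaks left. Genes with free ends, and genes of at least 2000 bp, both had a median of 19.6 kb. Counting TAC peaks gave a width of 627 bp. Leaving out sensory receptors, chosen after seeing the data, left all 8 results within these bounds. Over all shared pairs the TAC peak came earlier for 58.8%, for 57.4% in the first 50% of each list and for 50% with the TAC list cut (both compared after seeing the data). Replicates could not be left out, and no paired analysis was possible because each group has 1 library. Depth is known per library only, so no limit per peak can be given.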
